A study of Arabidopsis thaliana with 6 samples.

Results

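WRKY53 (AT4G23810), STZ (AT1G27730) and SAG29 (AT5G13170) are 3 Arabidopsis thaliana genes of the stress and leaf senescence programmes. They were taken as the probe sets annotated to exactly 1 of these genes, which gave 3 probe sets, 1 per gene, of 22746 tested. They were measured in whole Col-0 seedlings of 2 weeks raised on MS medium at 22 °C with 16 h of light and 8 h of darkness a day, on 2 arrays each of nar1-4/-, nbp35-3/- and wild type, numbered 1 and 2 within each genotype. Both mutants are deficient, by the title of the series, in the cytosolic assembly of iron-sulphur (Fe-S) clusters. The meaning of "/-" and what arrays of 1 number share are unstated, and nbp35-3/- samples carry nbp35-4/- in their source name. The series description calls the 2 arrays of each genotype biological replicates, but nothing says that they came from separate cultures. The p-values therefore measure only the spread between these samples, and how much of it is technical is unknown. As 0 probe sets named NAR1 and 0 named NBP35, the genotype labels were not checked against the mutated genes.

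WRKY53 encodes a transcription factor that binds W-box promoter elements, responds to hydrogen peroxide and promotes leaf senescence. STZ, also named ZAT10, encodes a zinc finger repressor first isolated for the salt tolerance it gave to yeast, and its transcript responds to salt, cold, wounding and strong light. SAG29, also named SWEET15, encodes a sugar transporter of the SWEET family whose transcript accumulates in senescing leaves and under osmotic stress, and which takes part in feeding the embryo in seeds. Fe-S proteins work in electron transfer, DNA maintenance and metabolism, and their assembly is closely tied to iron and redox state.

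WRKY53 was higher in nar1-4/- than in both other genotypes on every array. Its RMA value (log2) was 4.29 and 3.70 on nar1-4/- arrays 1 and 2, 3.02 and 3.23 on nbp35-3/- arrays, and 3.34 and 3.06 on wild-type arrays. The nar1-4/- values therefore did not overlap those of either other group, while nbp35-3/- and wild type overlapped. A gap of nar1-4/- above wild type was found in 9.16% of all probe sets. The gap of nbp35-3/- below nar1-4/- was found in 8.93%. The nbp35-3/- and wild-type values all lay under the first quartile of their own array, whereas both nar1-4/- values lay above it.

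The mean of WRKY53 was 3.99 ± 0.42 in nar1-4/- and 3.20 ± 0.20 in wild type (SD, n = 2 each), a log2 difference of 0.80 ± 0.25 (SE), or 1.74-fold as measured, with a 95% interval of 0.16 to 1.43 and with both wild-type values under the first quartile. The difference was 0.95 within number 1 and 0.64 within number 2. The limma test adjusted over all probe sets did not call it (adjusted p = 1 after rounding, unadjusted p = 0.0236), and 0 probe sets (0%) were called in any of the 3 genotype comparisons, with or without the replicate number as a block. Of 22746 probe sets, the limma fit without the block held 196 at an unadjusted p under 0.05 in nar1-4/- against wild type. It held 139 in nbp35-3/- against wild type and 217 between the mutants, and the fit with the block held 1009, 1076 and 1263. These counts are not adjusted for the number of probe sets tested. With values floored at the first quartile of each array the difference was 0.46 ± 0.21, and without nar1-4/- replicate 1 it was 0.50 ± 0.23.

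Against nar1-4/-, WRKY53 in nbp35-3/- averaged 3.12 ± 0.15, with 3.99 ± 0.42 in nar1-4/- (SD, n = 2 each), a log2 difference of -0.87 ± 0.25 (SE; 95% interval -1.51 to -0.24). It was -1.27 within number 1 and -0.47 within number 2, and was not called by limma (unadjusted p = 0.0167). Floored at the first quartile it was -0.44 ± 0.21, and without nar1-4/- replicate 1 it was -0.58 ± 0.23. Against wild type the nbp35-3/- difference was -0.08 ± 0.25 (95% interval -0.71 to 0.56), with opposite signs within number 1 (-0.32) and number 2 (0.17). The interval leaves room for a difference in either direction, so the test does not show that the 2 genotypes are alike. Over all probe sets, nbp35-3/- lay below wild type within both numbers in 23.3% and above it in 27.3%, and without overlap below it in 8.61%.

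**Figure D1:**
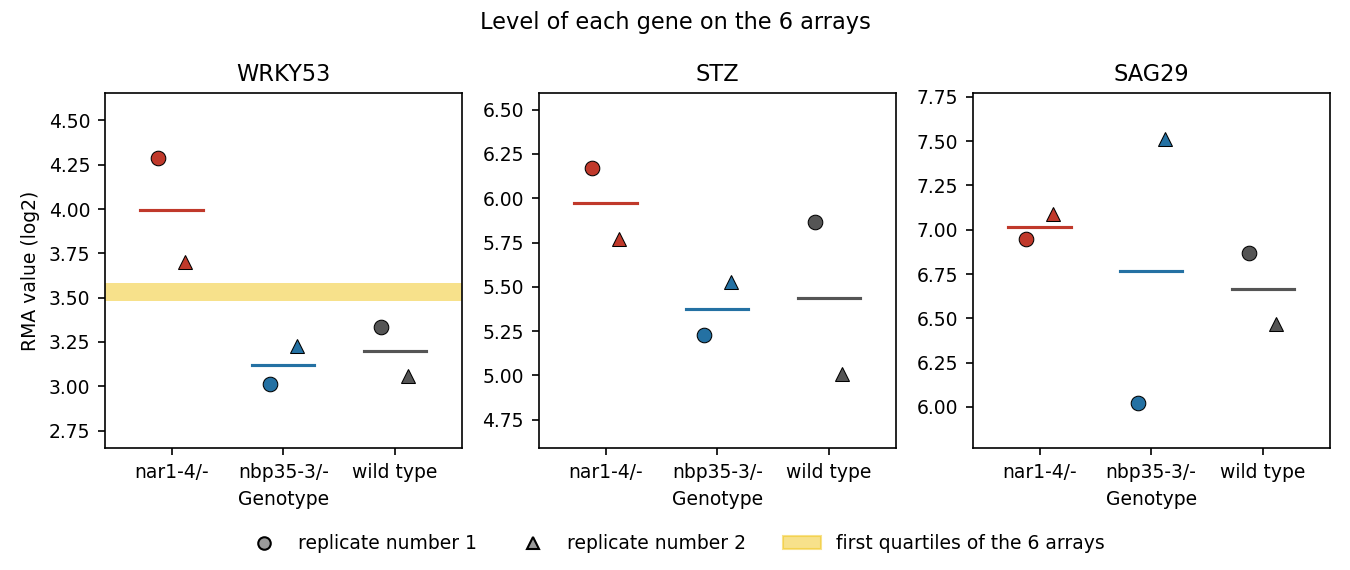
RMA values (log2) of WRKY53, STZ and SAG29 on the 6 arrays by genotype, with circles for replicate number 1, triangles for number 2 and a bar at each mean. Each panel spans 2 log2 units. The yellow band marks the first quartiles of the 6 arrays (3.48 to 3.58). Of the WRKY53 values only those of nar1-4/- lie above it, and the 2 nbp35-3/- values of SAG29 (6.02 and 7.51) enclose all its other values.

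STZ had its highest value on a nar1-4/- array and its lowest on a wild-type array. The values were 6.17 and 5.77 on nar1-4/- arrays 1 and 2, 5.23 and 5.53 on nbp35-3/- arrays, and 5.87 and 5.01 on wild-type arrays. All lay above the first quartile of their array. The 2 wild-type values were 0.86 apart and overlapped those of both mutants, whereas nbp35-3/- lay below nar1-4/- without overlap, as did 8.93% of all probe sets.

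In nar1-4/- STZ averaged 5.97 ± 0.28, and in wild type 5.44 ± 0.61 (SD, n = 2 each), a log2 difference of 0.53 ± 0.34 (SE; 95% interval -0.33 to 1.40). It was 0.31 within number 1 and 0.76 within number 2, so nar1-4/- was the higher in both, as it was for 25.8% of probe sets, with 28.5% the other way. The estimate rested on the wild-type arrays: it was 0.96 without wild type replicate 1 and 0.11 without wild type replicate 2. In nbp35-3/- STZ averaged 5.38 ± 0.21, a log2 difference from wild type of -0.06 ± 0.34 (95% interval -0.92 to 0.80). That mean joined -0.64 within number 1 and 0.52 within number 2. Between the mutants the difference was -0.60 ± 0.34 for nbp35-3/- against nar1-4/- (95% interval -1.46 to 0.27), with -0.95 and -0.24 within numbers 1 and 2. It was -0.39 without nar1-4/- replicate 1, and with the replicate block -0.13 without nbp35-3/- replicate 1 and -1.06 without nbp35-3/- replicate 2. Of all probe sets 22.8% were likewise lower in nbp35-3/- within both numbers and 27.8% higher. None of the 3 differences of STZ was called by limma, with unadjusted p-values of 0.172, 0.864 and 0.137.

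SAG29 separated the 2 nbp35-3/- arrays more than it separated any genotypes. Its values were 6.95 and 7.09 on nar1-4/- arrays 1 and 2, 6.02 and 7.51 on nbp35-3/- arrays, and 6.87 and 6.47 on wild-type arrays. The nbp35-3/- arrays were thus the lowest and the highest of all 6, a 2.80-fold gap within the genotype. The nar1-4/- arrays both lay above the wild-type arrays, by a margin of 0.08 between the nearest values, and a gap of that direction was found in 9.16% of probe sets.

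The mean of SAG29 was 7.02 ± 0.10 in nar1-4/- and 6.67 ± 0.28 in wild type (SD, n = 2 each), a log2 difference of 0.35 ± 0.50 (SE; 95% interval -0.94 to 1.64), with 0.08 within number 1 and 0.62 within number 2. It was 0.15 without wild type replicate 2 and 0.55 without wild type replicate 1. The SE of 0.50 pools the spread of all 3 genotypes, the nbp35-3/- pair included. With only nar1-4/- and wild type in the fit it was 0.20 (unadjusted p = 0.158 by limma). In nbp35-3/- the mean was 6.77 ± 1.05, a difference from wild type of 0.10 ± 0.50 (95% interval -1.19 to 1.39), which joined -0.84 within number 1 and 1.04 within number 2. Leaving out nbp35-3/- replicate 1 gave 0.84, and leaving out nbp35-3/- replicate 2 gave -0.64. The difference of nbp35-3/- from nar1-4/- was -0.25 ± 0.50, with -0.92 and 0.42 within numbers 1 and 2. It was 0.49 without nbp35-3/- replicate 1 and -0.99 without nbp35-3/- replicate 2. None of the 3 was called by limma, with unadjusted p-values of 0.517, 0.849 and 0.641.

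The order of the genotype means was nar1-4/-, wild type and nbp35-3/- for WRKY53 and STZ, and nar1-4/-, nbp35-3/- and wild type for SAG29. In all 3 genes the nbp35-3/- and wild-type values overlapped, as did those of STZ in nar1-4/- and wild type. An exact permutation test of 2 arrays against 2 cannot give a two-sided p below 0.333, and that value was reached for WRKY53 and SAG29 in nar1-4/- against wild type and for WRKY53 and STZ between the mutants. Both mutants were compared with the same wild-type arrays, so their differences are not independent of each other.

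**Figure D2:**
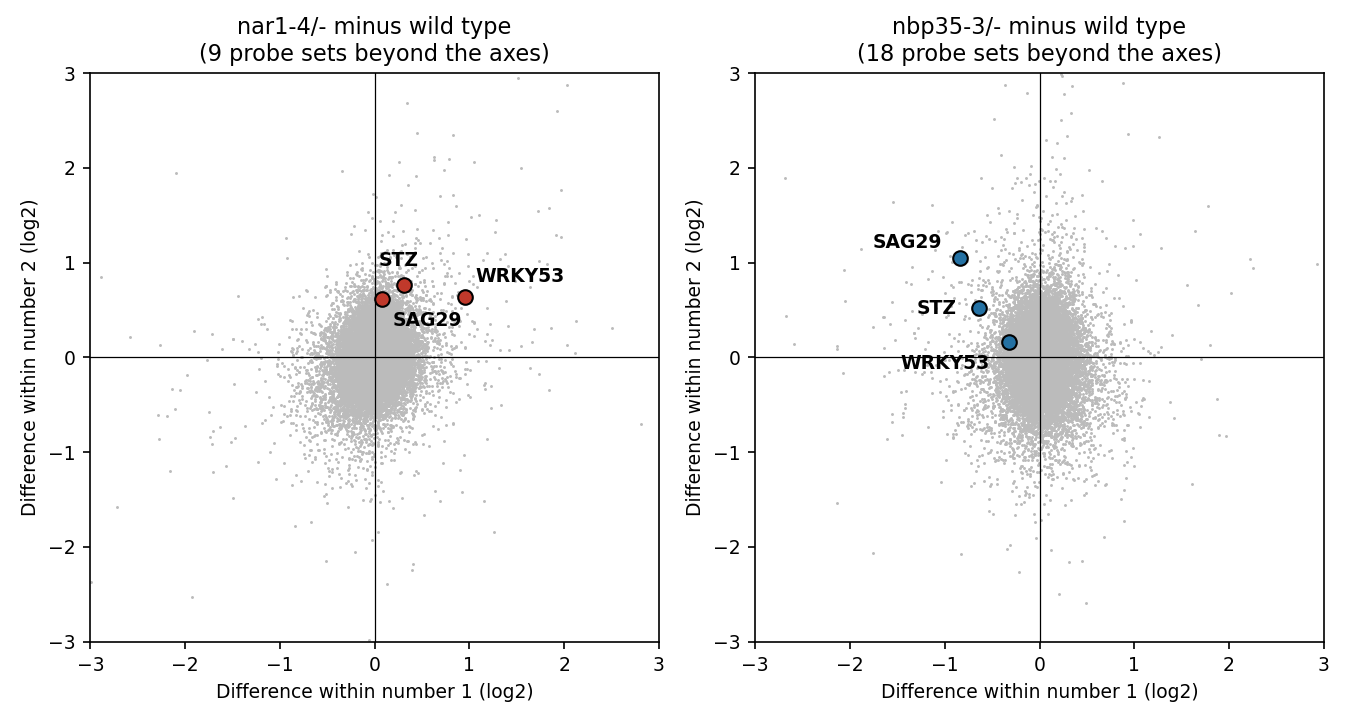
Difference from wild type (log2) within replicate number 1 (x axis) and number 2 (y axis) for nar1-4/- (left) and nbp35-3/- (right), with every tested probe set in grey and WRKY53, STZ and SAG29 as large points. The 3 genes lie above 0 on both axes in nar1-4/-, and in nbp35-3/- below 0 in number 1 and above 0 in number 2.

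The arrays as a whole separated by replicate number, and the 3 genes followed that split less than most probe sets did. Arrays 1 and arrays 2 lay apart on the first principal component (69.9% of variance), and on the second, with 11.5%, nbp35-3/- replicate 2 stood at 29.7 and the other arrays at -20.5 to 9.88. Deviations from the genotype means correlated at 0.674 to 0.814 between arrays of the same number. Over all probe sets the median share of variation taken by the number was 44.2%, that by genotype 21.5% and the rest 19.8%. For WRKY53, genotype took 80.0%, the number 6.10% and the rest 13.9%. For STZ the shares were 46.6%, 16.5% and 36.9%. For SAG29 genotype took 9.81%, the number 19.0% and the rest 71.2%. These shares describe 6 values each and were not tested. All 3 genes varied more than most, since 11.1%, 14.1% and 9.72% of probe sets had a larger SD over the 6 arrays than WRKY53, STZ and SAG29.

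Number 2 was set against number 1 with genotype in the limma fit, which called 23.4% of probe sets and 0 of the 3 genes. WRKY53 averaged 3.33 ± 0.33 in number 2 and 3.55 ± 0.66 in number 1 (SD, n = 3 each), a log2 difference of -0.22 ± 0.17 (SE), at adjusted p = 0.406 by limma. STZ averaged 5.44 ± 0.39 in number 2 and 5.75 ± 0.48 in number 1, a difference of -0.32 ± 0.22, at adjusted p = 0.361 by limma. SAG29 averaged 7.02 ± 0.53 in number 2 and 6.61 ± 0.51 in number 1, a difference of 0.41 ± 0.35, at adjusted p = 0.453 by limma.

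The differences of number 2 from number 1 varied by genotype. For WRKY53 the log2 difference was -0.59 in nar1-4/-, 0.21 in nbp35-3/- and -0.28 in wild type. For STZ it was -0.40 in nar1-4/-, 0.30 in nbp35-3/- and -0.86 in wild type. For SAG29 it was 0.14 in nar1-4/-, 1.49 in nbp35-3/- and -0.40 in wild type. The nbp35-3/- pair was the only one in which all 3 values were higher in number 2. Each such value sets 1 array against 1, the 3 genes share those arrays, and this was not tested. Both nbp35-3/- values of WRKY53 lay under the first quartile. Without either nbp35-3/- array, which leaves the other 2 genotypes to carry the comparison, STZ was lower in number 2 by limma (log2 -0.63 ± 0.15, adjusted p = 0.0213), as part of 25.6% of probe sets called. The same fit gave -0.13 ± 0.16 for SAG29. Leaving out an nbp35-3/- array takes away the only genotype in which STZ was higher in number 2. With all 6 arrays STZ was not called (log2 -0.32 ± 0.22, adjusted p = 0.361 by limma). Its difference was -0.28 without either nar1-4/- array and -0.049 without either wild-type array. The STZ call therefore depended on which genotype was left out.

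Markers of organs were read beside these values, since a whole seedling mixes tissues and fewer cells of a type cannot be told apart from less RNA per cell. Green tissue was plainly present on all arrays, with 2 of 12 written markers measured: LHCB4.1, a light-harvesting antenna protein, stood at 12.9 to 13.2 and RCA, the Rubisco activase, at 13.4 to 13.6. Of 10 root markers 3 were measured. The root-hair expansins EXPA18 and EXPA7 stood at 6.44 and 6.05 on nbp35-3/- array 1, where SAG29 and WRKY53 were lowest, and at 5.37 to 5.74 and 4.75 to 5.40 on the other arrays. PYK10, a root beta-glucosidase, was not raised on nbp35-3/- array 1, at 11.8 with 11.7 to 12.2 on the other arrays. The summed linear level of the 3 root markers, led by PYK10, was 3432 and 4701 in nar1-4/- and 3731 and 4198 in nbp35-3/-. In wild type it was 4211 and 4604.

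Of 10 embryo and seed markers 2 were measured, the late embryogenesis genes M10 and M17. M10 lay under the first quartile of all 6 arrays. M17 stood at 3.99 on nbp35-3/- array 2, where SAG29 was highest, and at 2.18 to 2.71 on the other 5, all of these under the first quartile. The summed linear level of both was 23.9 on nbp35-3/- array 2 and at most 13.2 on the others. The part of organ composition in the SAG29 values was not tested.

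Other WRKY factors linked to senescence were uneven. Of 18 written loci of this list 3 were measured, WRKY53 among them. In comparisons of genotypes 0 passed the limma test in either direction. The median difference in nar1-4/- from wild type was 0.64, with -0.01 over all probe sets. That median is WRKY22's own value, between WRKY53 (0.80), chosen with its values known, and WRKY6 (-0.18). WRKY22, a factor of defence and dark-induced senescence, stood at 6.60 and 7.07 on nar1-4/- arrays 1 and 2, at 6.49 and 6.71 on nbp35-3/- arrays, and at 5.97 and 6.42 on wild-type arrays. Its log2 difference from wild type was 0.64 ± 0.25 in nar1-4/-, with 0.63 and 0.65 within numbers 1 and 2, and 0.40 ± 0.25 in nbp35-3/-, with 0.52 and 0.29. WRKY22 was therefore above wild type within both numbers in both mutants, unlike WRKY53. WRKY6, a factor of senescence and phosphate response, differed by -0.18 in nar1-4/- and -0.21 in nbp35-3/-, each with opposite signs within the numbers. Of 13 other stress and defence WRKY loci 0 had such a probe set.

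Of 33 senescence markers and regulators 5 were measured, WRKY53, WRKY6 and SAG29 among them, and 0 passed in any comparison of genotypes. The median difference was 0.35 in nar1-4/- against wild type, -0.21 in nbp35-3/- against wild type and -0.25 in nbp35-3/- against nar1-4/-. Over all probe sets these medians were -0.01, 0.01 and 0.02. The list medians include WRKY53 and SAG29, chosen with their values known, and 0.35 and -0.25 are SAG29's own values. In nar1-4/- against wild type SAG101 differed by 0.36, WRKY6 by -0.18 and YLS5 by -0.30. SAG101, a lipase-like partner of the immune regulators EDS1 and PAD4, stood at 5.05 and 4.87 in nar1-4/-, 4.38 and 4.39 in nbp35-3/-, and 4.50 and 4.71 in wild type. It had the WRKY53 order of genotypes, above wild type within both numbers in nar1-4/- (0.55 and 0.16) and below it within both in nbp35-3/- (-0.12 and -0.31), and it was -0.57 ± 0.15 in nbp35-3/- against nar1-4/-. YLS5, a gene named for yellow leaves, differed by -0.30 ± 0.27 in nar1-4/- and -0.42 ± 0.27 in nbp35-3/-. Against wild type 3 of the 5 means were higher and 2 lower in nar1-4/-, and 1 was higher and 4 lower in nbp35-3/-, the higher one being SAG29 (0.10 ± 0.50). Between the mutants all 5 means, and all 3 of the WRKY list, were lower in nbp35-3/- than in nar1-4/-. The lists share WRKY53 and WRKY6, so these are not separate counts. WRKY6 (-0.04), YLS5 (-0.12) and SAG29 (-0.25) had opposite signs within the numbers. Of the 5, 2 were lower within both numbers, WRKY53 and SAG101, as were 22.8% of all probe sets.

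SAG29 could be set in its family, since 16 of 17 SWEET genes were measured. Against wild type 0 of the 16 passed in nar1-4/- and 0 in nbp35-3/-, and the medians were 0.06 in nar1-4/- and 0.07 in nbp35-3/-, with -0.01 and 0.01 over all probe sets. In nar1-4/- the differences ran from -0.41 to 0.36, and that of SAG29 (0.35) was next to that of SWEET1 (0.36), a glucose transporter, at the upper end. Like SAG29, SWEET1 differed by little within number 1 (-0.01) and more within number 2 (0.73). SWEET11, which exports sucrose for phloem loading, differed by 0.31 ± 0.14, with 0.37 and 0.25 within the numbers. SWEET1 and SWEET11 fall outside the naming rule and were picked with their values known.

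In nbp35-3/- the SWEET differences ran from -1.03 to 0.71. SWEET2, a vacuolar glucose transporter, stood at 7.46 and 7.83 in nbp35-3/- and at 6.68 and 7.20 in wild type, a difference of 0.71 ± 0.30 with 0.79 and 0.63 within the numbers. SWEET4 stood at 4.08 and 5.01 in nbp35-3/- and at 6.22 and 4.93 in wild type, a difference of -1.03 ± 0.53 that came from number 1 (-2.14) and not number 2 (0.08). SWEET16, a vacuolar sugar transporter, differed by 0.37 ± 0.21, with 0.50 and 0.23.

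SWEET13, a sucrose transporter, differed by -0.35 ± 1.15 in nar1-4/- and -0.50 ± 1.15 in nbp35-3/-. With the replicate block, which takes out the shift between the numbers, the SE was 0.12 and neither difference was called by limma. The 3 SWEET13 values in number 1 all lay under the first quartile of their array, so its differences within number 1 are at the dim end of the range. Within number 2 it was -0.40 in nar1-4/- and -0.61 in nbp35-3/-. Between the numbers 2 of the 16 SWEET genes were called by limma, against 23.4% of all probe sets. SWEET13 was higher in number 2 (adjusted p = 0.000986 by limma), with a measured log2 difference of 2.08 ± 0.10 whose size depends on those dim number 1 values, and SWEET17, a vacuolar fructose transporter, 0.84 ± 0.21 higher (adjusted p = 0.0419 by limma). SWEET17 too was picked with its values known. The SAG29 difference between the numbers (0.41) had a larger SE, 0.35, than either.

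**Figure D3:**
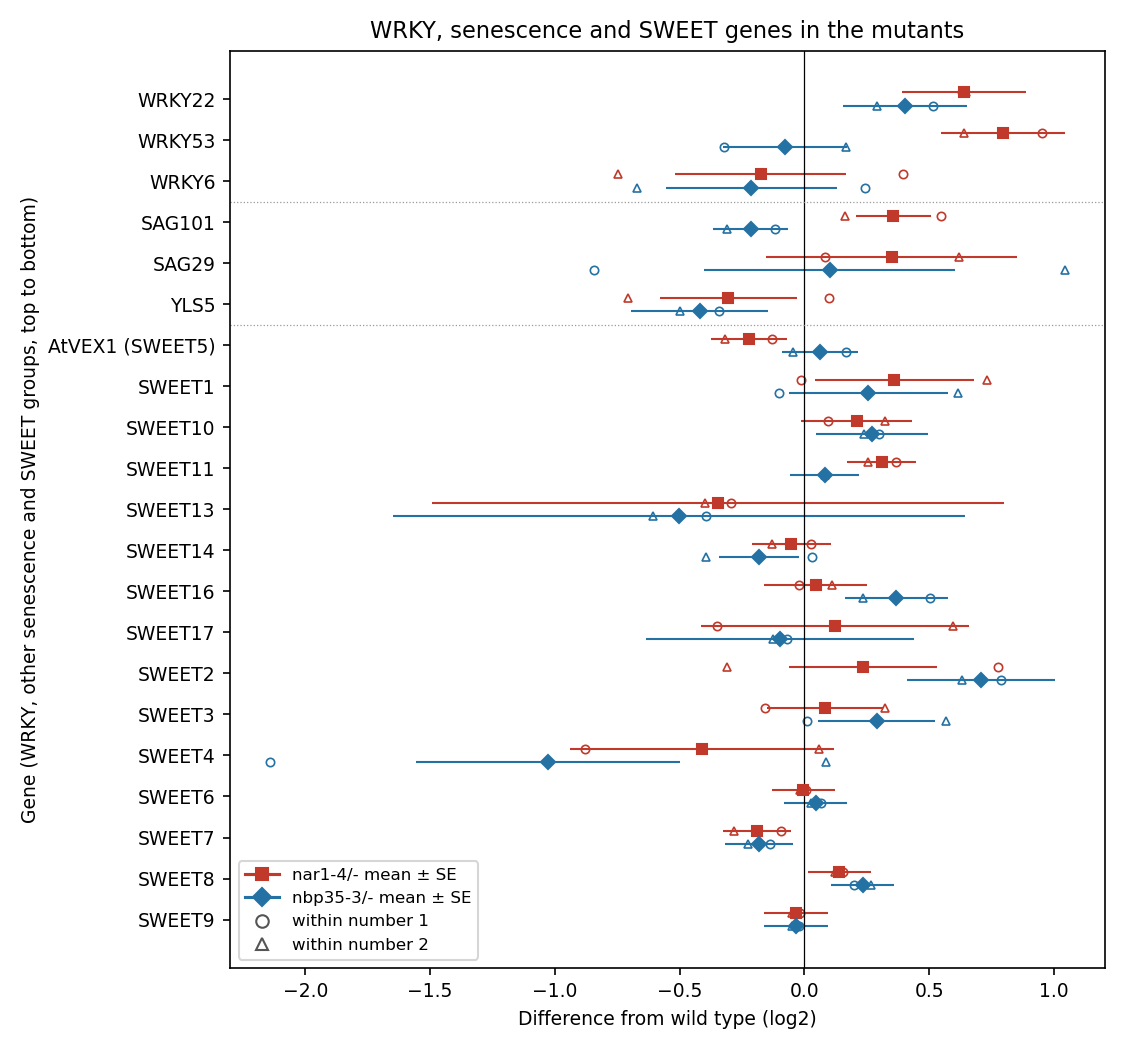
Difference from wild type (log2) of each measured gene of the WRKY, senescence and SWEET lists, with filled squares for nar1-4/- and filled diamonds for nbp35-3/- (mean ± SE of the fit without replicate block), and open circles and triangles for the differences within numbers 1 and 2. WRKY53 and WRKY22 lie to the right in nar1-4/- within both numbers, and the open symbols of SAG29 in nbp35-3/- lie on opposite sides of 0, at -0.84 and 1.04. AtVEX1 is the annotation's name for SWEET5.

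The STZ family of EAR-motif zinc fingers had 1 of 11 loci both matched by name and measured, STZ itself, and 2 more had a probe set but were left out because their written names did not match the gene table. Of 24 rapid stress responders 3 were measured, and 0 passed between genotypes. CML38, a calmodulin-like gene induced by wounding, stood at 6.46 and 4.07 in nar1-4/-, 5.77 and 4.42 in nbp35-3/-, and 6.68 and 4.43 in wild type, so it was lower in number 2 in every genotype (log2 -1.998 ± 0.21, adjusted p = 0.0039 by limma). STZ shared this direction between the numbers in nar1-4/- and wild type but not in nbp35-3/-. CML37, a related gene, lay under the first quartile of all arrays.

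Of 21 oxidative stress genes 5 were matched by name and measured, and 0 of these passed between genotypes. A further 2 had a probe set but no name match and were left out. The median was 0.11 in nar1-4/- and -0.14 in nbp35-3/- against wild type, with -0.01 and 0.01 over all probe sets. Both list medians include STZ, chosen with its values known. STZ had the highest difference of the 5 in nar1-4/- (0.53). There the glutathione transferases GSTU25 and GSTU22 differed by 0.24 and -0.46 and the stromal ascorbate peroxidase SAPX by -0.14. In nbp35-3/- all 5 means were below wild type, and 1 of the 5 was below it within both numbers.

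Of 19 loci of abscisic acid, drought and salt 3 were measured, the cold- and dehydration-induced COR15A, COR15B and COR47, and 0 passed between genotypes. COR15A differed from wild type by -1.72 ± 0.63 in nbp35-3/- and -1.41 ± 0.63 in nar1-4/-, mainly from number 1. Within numbers 1 and 2 it was -3.08 and -0.35 in nbp35-3/- and -2.19 and -0.62 in nar1-4/-. COR15B differed by -1.04 ± 0.34 in nbp35-3/- and -0.29 ± 0.34 in nar1-4/-, and both genes were below wild type within both numbers in each mutant. COR47 differed by 0.07 ± 0.39 in nbp35-3/- and by -0.07 ± 0.39 in nar1-4/-, there with opposite signs within the numbers (-0.18 and 0.03). GRX480, a glutaredoxin of the salicylic acid response, was the only gene measured of 15 in the defence list. It differed by -0.82 ± 0.33 in nar1-4/- and -0.37 ± 0.33 in nbp35-3/-, mainly from number 2. Within numbers 1 and 2 it was -0.13 and -1.51 in nar1-4/- and -0.01 and -0.72 in nbp35-3/-. Of all probe sets, 28.5% were below wild type within both numbers in nar1-4/- and 23.3% in nbp35-3/-.

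The genes most like each of the 3 in pattern were sought by Pearson r over the 6 arrays. Candidates were probe sets naming 1 gene, with an SD of at least 0.3 and a mean at or above the first quartile of all means. A gene could therefore pass through high values in 1 genotype and be dim in another. AT5G52750 was under the first quartile on wild-type array 2 and nbp35-3/- array 1 (2.95 each). So were AT5G52390 on nbp35-3/- array 1 (3.31) and AT1G17960 on wild-type array 2 (3.36). The 6 points share arrays and replicate numbers and there were 3123 candidates, so the values are given as a description with no test. For WRKY53 these were AT5G52390 (r = 0.98), AT1G17960 (r = 0.97) and AT5G52750 (r = 0.95). AT5G52390 stood at 5.13 and 4.22 in nar1-4/-, 3.31 and 3.84 in nbp35-3/-, and 3.74 and 3.63 in wild type. AT1G17960 stood at 5.62 and 4.63 in nar1-4/-, 3.74 and 3.63 in nbp35-3/-, and 3.66 and 3.36 in wild type. Both were highest in nar1-4/- within each number, as WRKY53 was. They were chosen for their likeness to it on these same arrays, so the shared pattern is no separate support.

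For STZ the most similar genes were AT1G55450 (r = 0.93), AT3G04640 (r = 0.93) and again AT5G52750 (r = 0.92). For SAG29 they were AT1G72900 (r = 0.94), AT2G28400 (r = 0.94) and AT4G20930 (r = 0.92). AT1G72900 stood at 6.47 and 6.43 in nar1-4/-, 5.02 and 7.12 in nbp35-3/-, and 5.94 and 6.12 in wild type. Its lowest and highest values lay in the nbp35-3/- pair, a pattern of SAG29 by which it was chosen. With the mean of each number taken away, 881 candidates remained. AT5G52390 and AT1G17960 again came first for WRKY53 (r = 0.99 and 0.97), followed by AT1G65370 (r = 0.96). STZ was then closest to AT4G14020 (r = 0.98), AT1G55450 (r = 0.95) and AT1G62290 (r = 0.95). SAG29 was closest to FDH, the formate dehydrogenase gene (r = 0.98), AT4G27300 (r = 0.98) and AT5G61520 (r = 0.98).

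**Figure D4:**
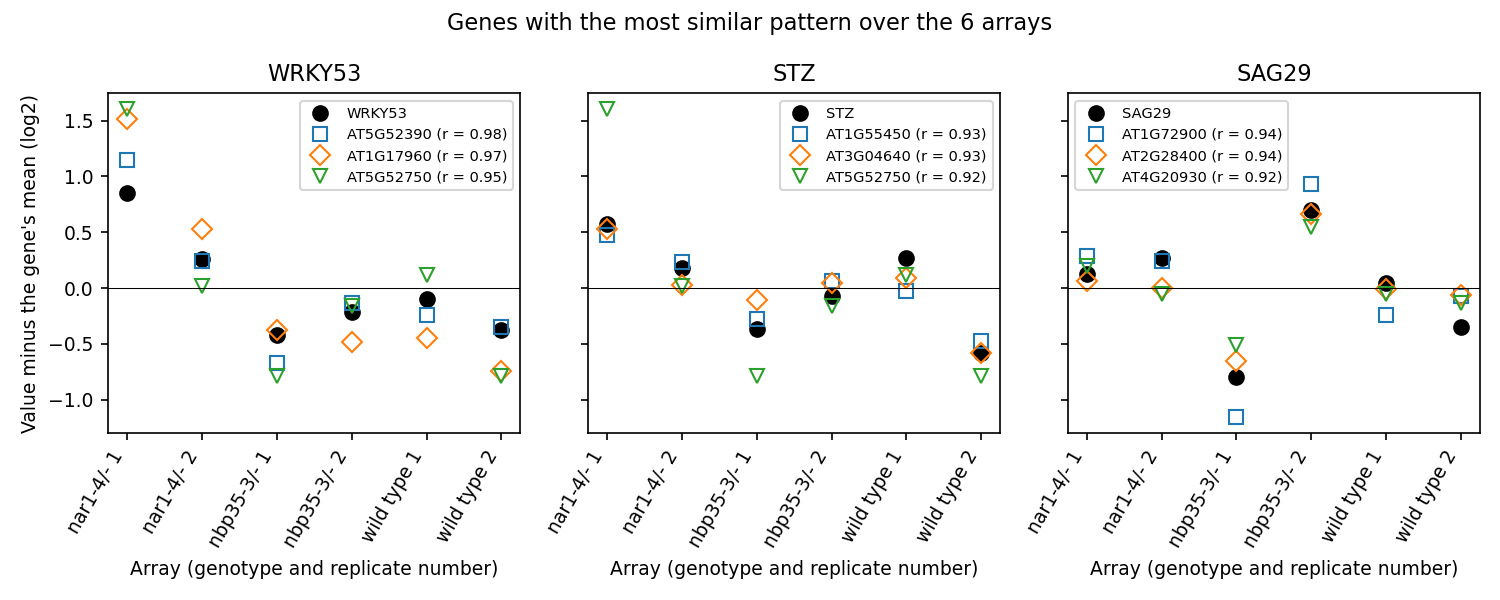
Value minus the gene's own mean (log2) on each of the 6 arrays for WRKY53, STZ and SAG29 (black) and the 3 genes with the highest Pearson r to each (open symbols). The WRKY53 group peaks on nar1-4/- array 1, and the SAG29 group has its lowest point on nbp35-3/- array 1 and its highest on nbp35-3/- array 2. The open symbols were chosen for this likeness on the same arrays.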

How the data were processed

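Expression was measured on 6 arrays. The authors' deposited table holds log2 values made by RMA, per the submitters' processing notes, which corrects background, normalizes arrays by quantiles and summarises probes, so differences in total RNA are removed. No source used here gives the RMA version. Per the labels' protocols, 3 samples started from less total RNA, and their codes match no array label. Array medians were 5.70 to 5.83. The number of arrays limits the precision.

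Of 22810 probe sets, 64 Affymetrix controls were set aside. Of 22746 left, 13513 named 1 gene in the platform annotation, 503 several and 8730 none, and 13436 matched a locus of a RefSeq gene table. Differences were fitted with limma 3.58.1 in R 4.3.3 (lmFit, eBayes, two-sided, 1 mean per genotype, 3 residual degrees of freedom), with Benjamini-Hochberg adjustment over all 22746 at 0.05. The script was tested on simulated data. Numbers were compared with genotype in the fit. The 3 genes and 12 gene lists were chosen with earlier results of these data known, and support nothing by themselves. Of 196 listed loci, 188 matched by name, of which 39 were measured, and 4 more were measured but not used, since their written names did not match. Named genes were the 3 genes, the 3 most similar to each by Pearson r, and of each list all measured members if 4 or fewer, otherwise the 4 with the largest absolute difference from wild type in a mutant. Alternatives were the replicate block, leaving out each array, other priors, centring, quantile normalization, array weights, pairs of genotypes, filters, and a floor at the first quartile. The block with each array left out was added after seeing the data. The motif searches planned for promoters and proteins were not run, as no sequence was used here.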

Additional observations from a re-analysis of the deposited data

Results flagged for a closer look

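Groups of 2 arrays are too small for an outlier test. Results are given here where the log2 difference of number 2 from number 1 had opposite signs in a mutant and in wild type. Each rests on 1 array per number, and the difference was not tested.

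SAG29 differed between the numbers by 1.49 in nbp35-3/- and -0.40 in wild type, a difference of 1.89 on the log2 scale, and by 0.14 in nar1-4/-, a difference from wild type of 0.54. STZ differed by 0.30 in nbp35-3/- and -0.86 in wild type, a difference of 1.16. WRKY53 differed by 0.21 in nbp35-3/- and -0.28 in wild type, a difference of 0.49.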

How the results depend on the processing

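Values with and without the replicate block were compared first, since same-numbered arrays deviated together at 0.674 to 0.814. With the block, adjusted p for the 3 genes was 0.829 to 0.986 and it changed no call. The difference of nar1-4/- from wild type kept its sign for WRKY53, STZ and SAG29 under every alternative but 1, the block without wild type replicate 2, where SAG29 was -0.26.

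For nbp35-3/- minus wild type the range over arrays left out was -0.22 to 0.060 for WRKY53, -0.49 to 0.37 for STZ and -0.64 to 0.84 for SAG29, and WRKY53 was 0.024 with values floored at the first quartile. For nbp35-3/- minus nar1-4/- SAG29 was -0.99 to 0.49. For number 2 minus number 1 SAG29 was -0.13 to 0.81 and STZ -0.63 to -0.049. Of probe sets, 5325 were called between the numbers, 1715 without either nar1-4/- array, 1959 without either wild-type array and 5816 without either nbp35-3/- array, in fits with fewer samples.

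The block with each array left out was chosen after seeing the data. It leaves 1 residual degree of freedom, and the lone array of a genotype is assumed to vary like the others. The limma fit then called 24 probe sets in nar1-4/- against wild type without either nbp35-3/- array. Without nbp35-3/- replicate 1 it called 240 in nbp35-3/- against wild type and 105 in nbp35-3/- against nar1-4/-, and without nbp35-3/- replicate 2 it called 14 and 63. The other fits of this kind called 0, the 3 genes were among the calls in none, and the cause was not tested. The range for nbp35-3/- minus wild type was -0.40 to 0.24 for WRKY53, -0.53 to 0.40 for STZ and -0.71 to 0.91 for SAG29, with 0.34 for STZ without wild type replicate 1 and -0.51 for SAG29 without wild type replicate 2. For nbp35-3/- minus nar1-4/- SAG29 was -1.06 to 0.56, and for nar1-4/- minus wild type -0.26 to 0.96.

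WRKY53 has no value under the filter on dim probe sets. Signal over background was not used here.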
